A study of Mus musculus with 24 samples.

Results

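The cyclic nucleotide phosphodiesterases described here are 10 genes, Pde1a, Pde1b, Pde1c, Pde2a, Pde4a, Pde4b, Pde4d, Pde7b, Pde8b and Pde10a. They were found by exact match of the gene symbol in 8 tables of normalized read counts, which together list 30270 gene identifiers. The symbols matched 11 identifiers, because Pde2a stands on a pair of them. RNA-seq was run on tissue punches of VTA (ventral tegmental area, the midbrain origin of the dopamine projection) and of nucleus accumbens, its striatal target, from 12 C57BL/6 mice, giving 24 libraries in 8 groups of 3. In each region the groups were wild-type mice (VDR+/+) given PBS (mice 1, 2 and 3) or morphine (mice 1.0, 1.1 and 1.2), and Vdr-/- mice, which lack the vitamin D receptor gene, given PBS (mice 7, 8 and 9) or morphine (mice 2.0, 2.1 and 2.2). Morphine sulfate was injected at 5 mg/kg. The study's text gives 90 minutes from injection to tissue for both injections, while its methods give 60 minutes for saline mice, so if the latter holds, injection and time cannot be told apart. According to the methods, Vdr-/- mice were raised on a calcium- and lactose-enriched diet, so genotype and diet cannot be told apart either. The age and sex of these mice are not given in the sources used here.

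Cyclic nucleotide phosphodiesterases hydrolyse cAMP and cGMP and so end the signal that G protein-coupled receptors raise or lower through adenylyl cyclase. The mu opioid receptor couples to inhibitory G proteins that lower cAMP, and dopamine acts on the medium spiny neurons of the striatum through receptors that raise it (Drd1) or lower it (Drd2). The isoenzymes differ in substrate and control. PDE1 enzymes are switched on by calcium and calmodulin and act on both nucleotides, PDE2A acts on both and is stimulated by cGMP, PDE10A acts on both and is concentrated in medium spiny neurons, and the PDE4, PDE7 and PDE8 enzymes are specific for cAMP.

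The libraries held 9328726 to 30184426 reads on genes. All 8 markers of medium spiny neurons (among them Drd1, Drd2, Ppp1r1b and Adora2a) were higher in the nucleus accumbens than in the VTA, and 7 of 8 markers of dopamine neurons were higher in the VTA. Vdr had between 0 and 17 reads in any library and up to 17 in either genotype, so it did not check the genotype labels. In the VTA the summed dopamine neuron markers were 199 to 548 CPM (reads of a gene scaled to a common total per library) in wild-type mice given morphine and 2310.5 to 2863 in those given PBS. The accumbens library of wild-type PBS mouse 2 stood apart from the other 23 in its relation to exon length. For each library, the log2 CPM of a gene was taken as a deviation from the median of the libraries of that region. Spearman's rho of these deviations with exon length, over 10136 genes, was -0.49 for this library against -0.26 to 0.23 for the others. The tables for morphine against PBS in the VTA leave out PBS mouse 3 in wild type and PBS mouse 8 in Vdr-/-, so each rests on 5 libraries. Nothing in the labels says whether mice of a group shared a litter or a day, and p-values measure the spread between these 3 mice.

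Promoter sequence was shown for the 3 genes with the lowest morphine to PBS ratio in the nucleus accumbens of Vdr-/- mice, Pde1b, Pde7b and Pde10a. The 150 bases upstream of 1 RefSeq start site each (GRCm38.p6, 5′ to 3′ on the gene's strand) lie at chr15:103502884-103503033 on the plus strand, chr10:20548329-20548478 on the minus strand and chr17:8801595-8801744 on the plus strand. The Pde1b stretch lies directly before the annotated gene. Those of Pde7b and Pde10a lie inside the annotated genes (chr10:20398004-20725078 and chr17:8525372-8986648), and which start these tissues use was not tested. Capitals mark the GC box GGGCGG on either strand (its reverse complement is CCGCCC), and the GC contents of the 3 stretches were 71.3%, 55.3% and 78.0%.
Pde1b: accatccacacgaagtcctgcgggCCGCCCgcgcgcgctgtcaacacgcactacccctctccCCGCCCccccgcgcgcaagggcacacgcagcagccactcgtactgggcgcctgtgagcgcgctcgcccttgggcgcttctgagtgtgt
Pde7b: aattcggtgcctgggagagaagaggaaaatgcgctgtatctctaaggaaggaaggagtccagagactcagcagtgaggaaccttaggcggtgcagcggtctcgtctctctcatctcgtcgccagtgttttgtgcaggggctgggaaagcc
Pde10a: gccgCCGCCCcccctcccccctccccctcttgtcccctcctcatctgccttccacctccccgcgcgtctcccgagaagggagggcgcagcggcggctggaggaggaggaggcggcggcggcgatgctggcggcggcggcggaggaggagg
The Pde1b stretch held the GC box at 2 places and the Pde10a stretch at 1, and the Pde7b stretch did not hold these letters. The window searched was 250 bases before the start, and 31 start sites of the 10 genes were compared with all 32851 windows of the mouse. The GC box was in 7 of the 31 windows (32.7% of all windows) and the E-box CAGCTG, read on both strands, in 6 (4271 of all windows).

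The cAMP response element, the binding letters of the cAMP-regulated factor CREB, was searched because these enzymes act on cAMP. Its full form TGACGTCA was in 0 of the 31 windows (1.55% of all windows), which says only that these letters were not in these windows. Its shorter core TGACG (or CGTCA on the other strand) was in 3 of the 31 (17.8% of all windows), 1 each for Pde1a, Pde4a and Pde4b, and every full element also holds the core. The stretches around these cores, with the core in capitals, lie at chr2:80039051-80039081 on the minus strand, chr9:21184038-21184068 on the plus strand and chr4:102421508-102421538 on the plus strand.
Pde1a: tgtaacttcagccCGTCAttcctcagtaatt
Pde4a: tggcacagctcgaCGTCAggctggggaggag
Pde4b: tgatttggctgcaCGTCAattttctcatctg
A match of letters is a description and was not tested for binding.

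Levels were compared between genes as CPM per kilobase of exon, a length-scaled level. In the nucleus accumbens, Pde1b, a calmodulin-activated enzyme, had the highest level, with a median of 143 over the 12 libraries (range 100.2 to 219.5). Pde10a followed at 74.2 (53.7 to 116). These 2 genes made up 43.0% and 22.3% of the summed level of the 10. Pde1a came next at 33.6 (24.97 to 40.1). The cAMP-specific Pde8b (21.9), Pde4a (19.3), Pde4b (17.8) and Pde7b (13.5) lay close together. Pde4d (4.56), Pde1c (3.20) and Pde2a (1.14) were lowest. Among neighbours in this order the ranges were separate only between Pde10a and Pde1a, between Pde7b and Pde4d, and between Pde1c and Pde2a. Pde4a was above Pde4b in 8 of 12 libraries, so their order was not fixed.

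In the VTA the median levels were lower, except that of Pde4d. Pde1b was again highest, with a median of 29.2 CPM per kilobase (range 24.7 to 33.0) and 32.3% of the summed level. Pde4a was second at 16.3 (13.5 to 18.3), 18.1% of the sum. Pde4b (10.4), Pde8b (9.55), Pde1a (8.30), Pde10a (6.87) and Pde4d (6.25) formed the middle of the order. Within it Pde8b exceeded Pde1a in 8 of 12 libraries and Pde1a exceeded Pde10a in 7 of 12. Pde7b (2.28), Pde1c (1.09) and Pde2a (0.142) were lowest, with ranges that did not overlap. Scaling by the longest transcript in place of all exon bases kept Pde1b highest and Pde2a lowest in both regions but moved Pde8b from rank 4 to 7 in the nucleus accumbens and Pde4d from rank 7 to 4 in the VTA. Pde2a rested on 66 to 167 reads per library in the nucleus accumbens and 8 to 30 in the VTA. On the same strand, 64.3% of its exon bases are shared with exons of the readthrough gene Gm45837. That gene carries the second Pde2a symbol and had at most 2 reads in any library. Reads in that shared part may have been left uncounted, so the Pde2a level is uncertain. Pde8b shares 7.60% of its exon bases with Gm48420 on the opposite strand, and which strand setting was counted is not given in the sources used here.

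**Figure D1:**
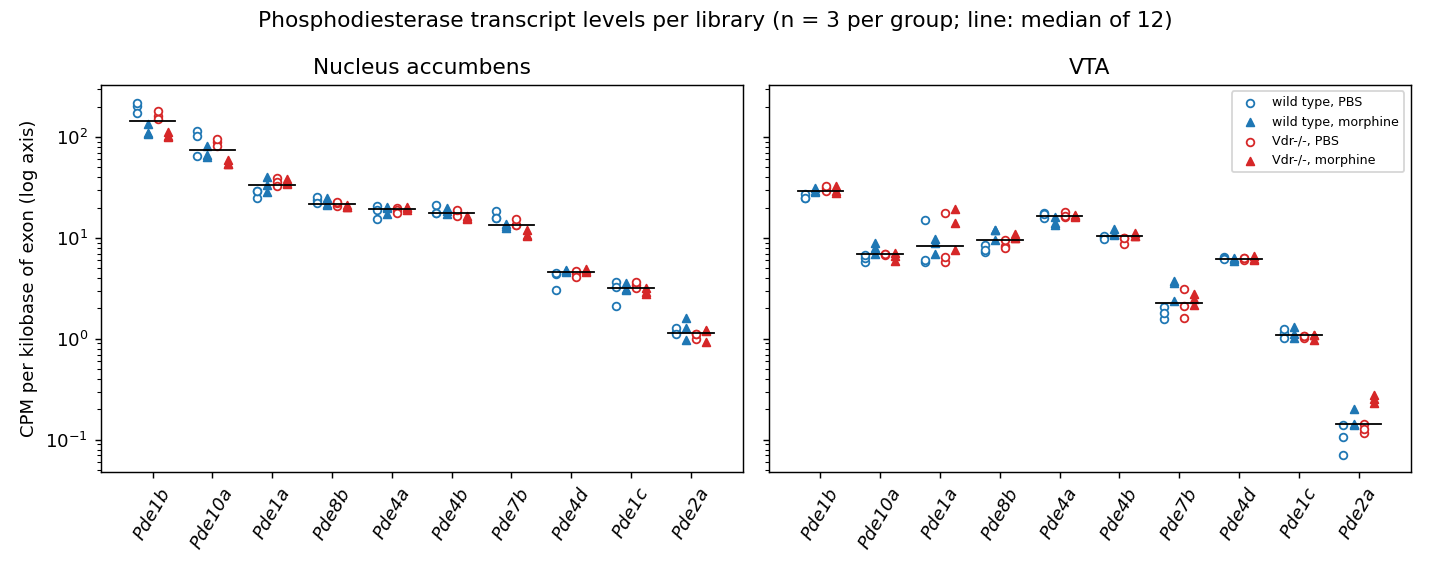
Level of each of the 10 phosphodiesterase genes in every library, as CPM per kilobase of exon on a log axis, in the nucleus accumbens and the VTA. Points are libraries (3 per group), lines are the median of 12; Pde1b is highest in both regions (medians 143 and 29.2) and Pde2a lowest.

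Of the 10 genes, 9 were higher in the nucleus accumbens than in the VTA and 1, Pde4d, was lower. In this contrast, fitted with limma on log2 CPM with the mouse as a block (12 mice), 74.4% of 15065 genes passed an adjusted p of 0.05 and 34.5% were higher in the nucleus accumbens. The median log2 difference of the 10 genes was 1.71 and that of all genes -0.03. All 10 calls held in each of the 12 fits that left out a mouse. In bulk samples of this kind, fewer cells of a type and less RNA per cell cannot be told apart.

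Among the calmodulin-activated enzymes, Pde1b (chr15:103503034-103530052, plus strand, GRCm38) was at 541 to 1185 CPM in the nucleus accumbens and 133 to 178 in the VTA, with no overlap (log2 difference 2.33, SE 0.0367, adjusted p = 2.53e-13). Pde1a (chr2:79834453-80129458, minus strand) was at 150.1 to 241 CPM against 34.5 to 117 (log2 difference 1.87, SE 0.158, adjusted p = 3.00e-07). Its VTA values varied more, relative to their mean, than those of any other of the 10 genes. Pde1c (chr6:56069804-56569103, minus strand) was at 42.3 to 74.1 CPM against 19.6 to 26.1 (log2 difference 1.56, SE 0.0737, adjusted p = 1.55e-09). All 3 PDE1 genes were thus higher in the nucleus accumbens, and none of their ranges overlapped between regions.

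Of the other dual-substrate enzymes, Pde10a (chr17:8525372-8986648, plus strand) had the largest difference of the 10, at 690.2 to 1490.1 CPM in the nucleus accumbens and 74.4 to 114 in the VTA. This was 11.3-fold (log2 difference 3.49, SE 0.0814, adjusted p = 5.82e-12). Pde2a (chr7:101421691-101512827, plus strand) was at 5.70 to 9.79 CPM against 0.439 to 1.70 (log2 difference 2.89, SE 0.118, adjusted p = 4.89e-10). Both ranges were separate between the regions.

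The cAMP-specific enzymes ranged from a large accumbens excess to a VTA excess. Pde7b (chr10:20398004-20725078, minus strand) was at 131 to 229.6 CPM in the nucleus accumbens and 19.5 to 46.4 in the VTA (log2 difference 2.57, SE 0.0834, adjusted p = 7.84e-11). Pde8b (chr13:95024454-95250336, minus strand) was at 119 to 149 CPM against 42.2 to 70.9 (log2 difference 1.29, SE 0.0373, adjusted p = 3.25e-11). Both were well separated, whereas the 3 genes of the PDE4 subfamily split. Pde4b (chr4:102087543-102607259, plus strand) was at 162 to 224 CPM against 91.5 to 128 (log2 difference 0.81, SE 0.0265, adjusted p = 8.12e-11). Pde4a (chr9:21165714-21213248, plus strand) overlapped, at 119 to 159 CPM against 104 to 139.8 (log2 difference 0.27, SE 0.0433, adjusted p = 9.92e-05). Within single conditions Pde4a passed in 3 of 4, and in wild-type mice given PBS its log2 difference was 0.15 with an adjusted p of 0.148. Pde4d (chr13:108449948-109953461, plus strand) was at 36.2 to 59.3 CPM in the nucleus accumbens and 71.0 to 78.6 in the VTA, higher in the VTA in all 12 mice (log2 difference -0.45, SE 0.0516, adjusted p = 5.24e-06). The other 9 genes passed within each of the 4 conditions.

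In the nucleus accumbens of Vdr-/- mice, 5 of the 10 genes were lower after morphine and none higher. Here 19.1% of 15820 genes passed and 9.13% passed in the lower direction, and the median log2 fold change of the 10 was -0.17 beside -0.01 over all genes. Pde10a was at 761, 698 and 690.2 CPM in the 3 mice given morphine and 1144, 1057 and 1226 in the 3 given PBS. Every morphine library was below every PBS library (log2 fold change -0.71, SE 0.0657, adjusted p = 0.000131 by limma). Pde1b was at 604, 541 and 551 CPM with morphine and 878, 820.0 and 971 with PBS, also without overlap (log2 fold change -0.69, SE 0.0685, adjusted p = 0.000177). Pde7b was at 148, 134 and 131 CPM with morphine and 169, 168 and 190.0 with PBS, without overlap (log2 fold change -0.39, SE 0.0634, adjusted p = 0.00201). These 3 calls held in all 6 fits that left out a library.

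The other calls in these mice were smaller. Pde4b was at 165, 162 and 173 CPM with morphine and 189.6, 175 and 201 with PBS (log2 fold change -0.22, SE 0.0570, adjusted p = 0.0229). Pde1c was at 55.8, 58.8 and 63.8 CPM with morphine and 68.3, 64.5 and 73.3 with PBS (log2 fold change -0.25, SE 0.0664, adjusted p = 0.0243). Neither pair of groups overlapped, but both calls were lost in 3 of the 6 fits that left out a library. Without morphine mouse 2.0, morphine mouse 2.1 or PBS mouse 9, the adjusted p was 0.0680, 0.0893 and 0.103 for Pde4b and 0.0867, 0.0823 and 0.107 for Pde1c. Pde8b overlapped between the groups, at 125, 119 and 119 CPM with morphine and 123, 129 and 132 with PBS, and did not pass (log2 fold change -0.12, SE 0.0481, adjusted p = 0.0915). Pde1a (-0.05), Pde2a (0.01), Pde4a (0.03) and Pde4d (0.05) had log2 fold changes near 0 and overlapping groups.

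In wild-type mice, Pde1b was the 1 gene of the 10 that passed, where 0.813% of 15749 genes did. It was at 723, 597 and 575 CPM in the 3 mice given morphine and 1093, 1185 and 934 in the 3 given PBS, without overlap (log2 fold change -0.79, SE 0.121, adjusted p = 0.0393). The call held without PBS mouse 2, the library with the unusual relation to exon length, and was lost without any 1 of the other 5 libraries (adjusted p 0.0793 to 0.228, log2 fold change -0.88 to -0.73): without morphine mouse 1.0, 1.1 or 1.2 it was 0.0793, 0.228 and 0.194, and without PBS mouse 1 or 3 it was 0.105 and 0.0887. Pde7b was at 170.0, 155 and 165 CPM with morphine and 229.6, 197 and 198 with PBS, without overlap (log2 fold change -0.37, SE 0.0926, adjusted p = 0.122). Pde10a was at 1057, 849 and 818 CPM with morphine and 1490.1, 831 and 1323 with PBS, and PBS mouse 2, at 831 CPM, was below the other PBS libraries and inside the morphine range (log2 fold change -0.41, SE 0.232, adjusted p = 0.410). Without PBS mouse 2 both passed, Pde7b with a log2 fold change of -0.43 (adjusted p = 0.0229) and Pde10a with -0.69 (adjusted p = 0.0167). In that fit 627 of 15795 genes passed, against 128 with all 6 libraries and 0 to 21 without any 1 of the other 5. The same PBS library had the lowest Pde1c (42.3 CPM) and Pde4d (36.2 CPM) of the 12 accumbens libraries. The remaining log2 fold changes were 0.26 for Pde1a, 0.11 for Pde1c, 0.07 for Pde2a, 0.04 for Pde4a, -0.05 for Pde4b and -0.11 for Pde8b, with overlapping groups, and 0.23 for Pde4d, which did not pass and whose CPM did not overlap (54.9, 56.0 and 57.3 with morphine, 53.1, 36.2 and 53.4 with PBS).

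The genotype difference of the morphine effect in the nucleus accumbens was tested as an interaction by limma. None of the 10 genes passed, none had an unadjusted p under 0.05, and 0% of 15788 genes passed (916 at an unadjusted p under 0.05, and 0 by edgeR and by DESeq2). The differences were -0.30 for Pde10a (adjusted p = 0.866), 0.10 for Pde1b (adjusted p = 0.923) and -0.01 for Pde7b (adjusted p = 0.990). The larger number of calls in Vdr-/- mice is therefore not shown to be a genotype difference.

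**Figure D2:**
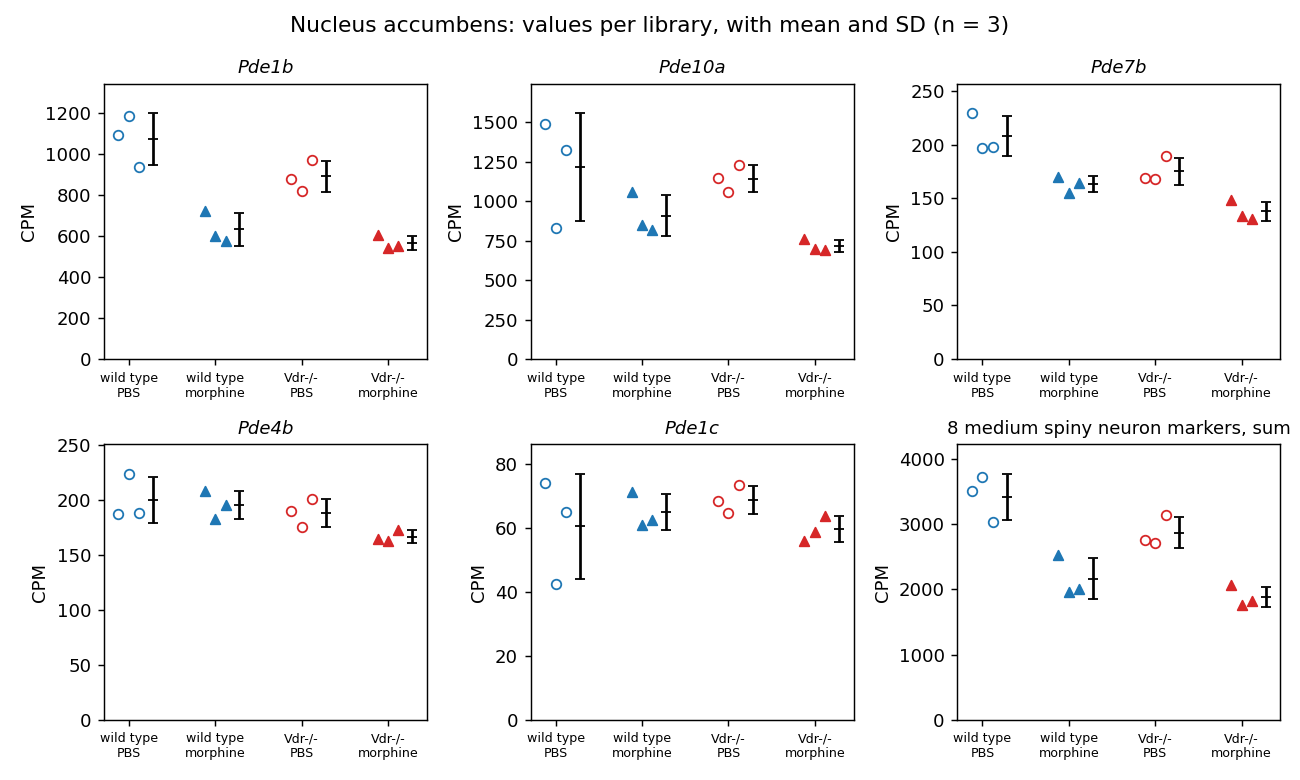
CPM in each of the 12 accumbens libraries for the genes called in Vdr-/- mice and for the sum of 8 medium spiny neuron markers, by genotype and injection; points are mice, bars beside the points the mean and SD (n = 3). Pde1b and Pde7b are lower after morphine than after PBS in both genotypes without overlap, Pde10a in Vdr-/- mice, with wild-type PBS mouse 2 inside the morphine range at 831, and the marker sum is lower in both.

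Markers of medium spiny neurons moved in the same direction in these libraries. Their summed level was 1766 to 2062 CPM in Vdr-/- mice given morphine and 2712 to 3141 in those given PBS, and 1965 to 2525 against 3033 to 3719.7 in wild type. All 8 markers passed as lower in Vdr-/- mice (median log2 fold change -0.56) and 3 of 8 in wild type (median -0.69). The 3 markers of the septum, a region beside the nucleus accumbens (Zic1, Zic2 and Trpc4), summed to 146 to 194 CPM with morphine and 43.2 to 69.2 with PBS in Vdr-/- mice, where all 3 passed as higher, and to 97.0 to 183 and 36.6 to 50.8 in wild type, where 1 of 3 did. In Vdr-/- mice 3 of 6 oligodendrocyte markers and 4 of 5 microglia markers passed as lower (medians -0.20 and -0.33) and 4 of 6 astrocyte markers as higher (median 0.26). In wild type 0 of 6, 1 of 5 and 1 of 6 passed in these directions. Summed microglia markers were 178 to 196 CPM with morphine and 216 to 229 with PBS in Vdr-/- mice.

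Levels were also set against the marker sum of the same library. Pde10a was 36.9 to 39.5% of the marker sum in Vdr-/- mice given morphine and 39.0 to 41.5% in those given PBS, overlapping (log2 ratio -0.07). Pde1b was 29.3 to 30.6% and 30.2 to 31.9%, also overlapping (log2 ratio -0.05), and in wild type 28.6 to 30.4% and 30.8 to 31.8%, without overlap (log2 ratio -0.10). Pde7b was 7.19 to 7.57% with morphine and 6.05 to 6.19% with PBS in Vdr-/- mice, higher in each morphine library (log2 ratio 0.26). The ratios of the other 7 genes were also higher with morphine, without overlap, in Vdr-/- mice, with log2 values from 0.40 for Pde1c to 0.70 for Pde4d. The marker sum was itself lower with morphine, so a gene with unchanged CPM has a higher ratio. Pde2a (0.66) and Pde4a (0.68), with log2 fold changes near 0, were of this kind. In these mice Pde1b and Pde10a thus differed about as much as the marker sum, and Pde7b, Pde4b and Pde1c by less. These ratios were chosen after seeing the data and carry no test, and the part of cell makeup in the fold changes was not tested further.

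**Figure D3:**
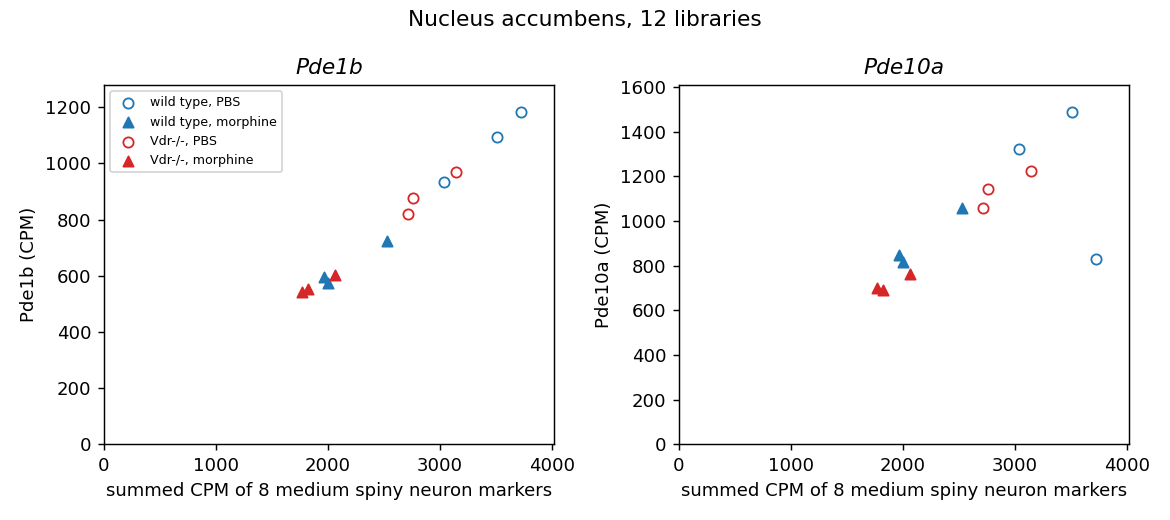
CPM of Pde1b and Pde10a against the summed CPM of 8 medium spiny neuron markers in the 12 accumbens libraries, each point a mouse, coloured by group; both axes start at 0. Pde1b and Pde10a follow the marker sum across the groups, apart from wild-type PBS mouse 2 for Pde10a.

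In the VTA no phosphodiesterase of the 10 passed for morphine against PBS, in either genotype, where limma called 3.65% of 16187 genes in wild type and 10% of 16364 (1639 genes) in Vdr-/- mice. At an unadjusted p under 0.05 there were 4 of the 10 in wild type (3919 of all 16187 genes) and 3 in Vdr-/- mice (4879 of all 16364). edgeR on the recovered reads called 0 and 1 of the 10 (628 and 1764 of all genes), and DESeq2 called 3 and 0 (1423 and 1936 of all genes). With all 6 mice of each genotype, limma on log2 CPM called 2 and 1 of the 10, where it called 1984 of 16187 and 1211 of 16364 genes. Of the 10 log2 fold changes, 7 were above 0 in each genotype, with medians of 0.25 and 0.02. All 8 dopamine neuron markers were detected in every VTA library, and 6 of the 8 passed as lower after morphine in wild type, as did 4 of 5 microglia markers. Summed hypothalamic markers were 184 to 969.8 CPM with morphine and 21.8 to 117 with PBS in wild type, and summed oligodendrocyte markers 5912 to 9742 and 11632 to 12665. In all 6 Vdr-/- mice the summed dopamine neuron markers overlapped, at 587 to 1148 CPM with morphine and 506 to 2183 with PBS. Summed hypothalamic markers overlapped there too (98.9 to 234 and 25.8 to 330). Summed oligodendrocyte markers (7791 to 8607 and 11451 to 11864) and microglia markers (142 to 163 and 179.8 to 246) were lower with morphine, without overlap. The part of cell makeup in the values that follow was not tested.

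Pde8b, a cAMP-specific enzyme, was at 70.9, 56.7 and 70.4 CPM in the VTA of wild-type mice given morphine and 42.2, 50.4 and 44.5 in PBS mice 1, 2 and 3. The groups did not overlap (log2 fold change 0.47, SE 0.119, adjusted p = 0.0802, without PBS mouse 3). With all 6 mice it passed (log2 fold change 0.49, adjusted p = 0.0220). In Vdr-/- mice it was at 58.5, 63.7 and 58.7 CPM with morphine and 48.9, 46.9 and 55.6 with PBS (log2 fold change 0.20, SE 0.0698, adjusted p = 0.102, without PBS mouse 8). Pde7b was at 29.5, 46.4 and 44.4 CPM with morphine and 19.5, 25.5 and 22.4 with PBS in wild type (log2 fold change 0.78, SE 0.230, adjusted p = 0.106), and with all 6 mice it passed (log2 fold change 0.78, adjusted p = 0.0398). In Vdr-/- mice the Pde7b groups overlapped, at 34.6, 30.8 and 27.2 CPM and 26.5, 20.1 and 38.5 (log2 fold change -0.06, adjusted p = 0.829). In wild type, then, the morphine libraries lay above the PBS libraries for both genes in the VTA, and for Pde7b below them in the nucleus accumbens.

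Pde2a was at 1.58, 1.70 and 1.43 CPM with morphine and 0.723, 0.886 and 0.795 with PBS in the VTA of Vdr-/- mice, without overlap. It did not pass (log2 fold change 0.99, SE 0.257, adjusted p = 0.0531), edgeR gave an adjusted p of 0.0475, and the value rests on 8 to 30 reads per library in the VTA. With all 6 mice the log2 fold change was 0.93 (adjusted p = 0.0491). In wild type it was at 0.878, 0.853 and 1.25 CPM with morphine and 0.649, 0.439 and 0.866 with PBS, where the groups overlapped through PBS mouse 3 (log2 fold change 0.78 without that mouse, adjusted p = 0.225). Pde10a was at 89.1, 103 and 114 CPM with morphine and 74.4, 81.6 and 86.7 with PBS in wild type (log2 fold change 0.35, SE 0.123, adjusted p = 0.154). In Vdr-/- mice Pde10a overlapped between the groups (log2 fold change -0.08, adjusted p = 0.529). Pde4d was the steadiest of the 10 in the VTA, at 71.0 to 78.6 CPM over all 12 libraries, with log2 fold changes of -0.08 and 0.01. Those of the remaining genes were 0.15 and -0.09 for Pde1b, -0.12 and 0.03 for Pde1c, -0.22 and 0.01 for Pde4a and 0.08 and 0.08 for Pde4b, in wild type and Vdr-/- mice.

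Pde1a had the widest spread relative to its mean in 3 of the 4 VTA groups, wild type given morphine being the exception. It was at 46.1, 117 and 84.1 CPM in Vdr-/- mice given morphine and 34.5, 105 and 38.5 in those given PBS, and at 58.8, 41.7 and 53.6 and 34.6, 36.5 and 91.5 in wild type. In the deposited tables, which omit Vdr-/- PBS mouse 8 (105 CPM) and wild-type PBS mouse 3 (91.5 CPM), morphine gave 1.07 (adjusted p = 0.0784) and 0.48 (adjusted p = 0.0899) on the log2 scale. With those mice included the log2 fold changes were 0.57 (adjusted p = 0.461) and 0.03 (adjusted p = 0.969). The 4 libraries with the highest Pde1a were also the 4 with the highest Slc17a7, the vesicular glutamate transporter of cortical excitatory neurons, in the same order. Slc17a7 was at 16.0, 153 and 74.6 CPM in Vdr-/- mice given morphine, 4.34, 131 and 46.5 in those given PBS, 2.74, 60.6 and 18.7 in wild type given morphine and 3.94, 17.4 and 122 in wild type given PBS. The omitted mice were among these 4 libraries.

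**Figure D4:**
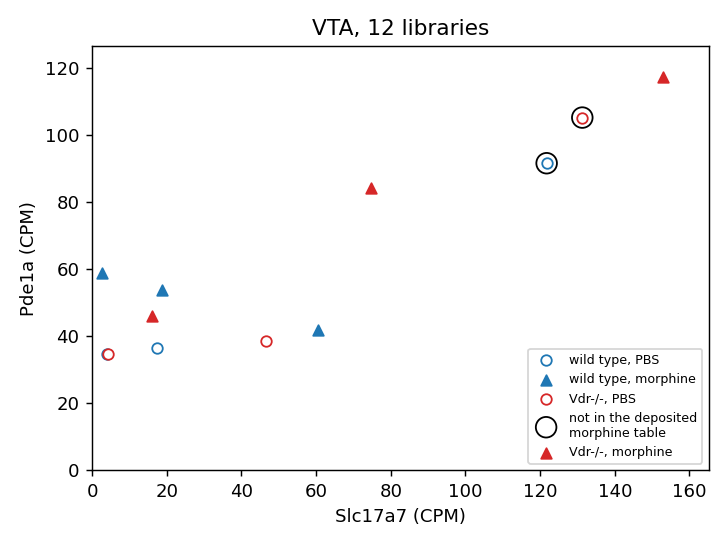
Pde1a against Slc17a7, a cortical excitatory neuron marker, in CPM in the 12 VTA libraries; each point is a mouse, coloured by group, and black rings mark the PBS mice that the deposited morphine tables omit. The 4 highest Pde1a values (84.1 to 117) are those of the 4 libraries with the highest Slc17a7 (74.6 to 153).

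The morphine effect was then compared between the regions, in 1 fit of all 24 libraries with the mouse as a block. For 5 of the 10 genes it was lower in the nucleus accumbens than in the VTA and for none higher, where 13.3% of 15065 genes passed and 5.79% passed as lower. The median difference of the 10 was -0.38 on the log2 scale beside 0.02 over all genes. Pde7b had the largest, -0.86 (SE 0.167, adjusted p = 0.00810). Pde1b followed with -0.81 (SE 0.0734, adjusted p = 0.000178) and Pde10a with -0.68 (SE 0.163, adjusted p = 0.0197). The cAMP-specific Pde8b, like Pde7b, passed in the wild-type VTA with all 6 mice but not without PBS mouse 3. Its morphine effect differed between the regions by -0.50 (SE 0.0746, adjusted p = 0.00249), and that of Pde4b by -0.27 (SE 0.0529, adjusted p = 0.00810). Each of the 5 calls held in the 12 fits that left out a mouse. Pde2a, at -0.71, did not pass (adjusted p = 0.0684). Of the 8 medium spiny neuron markers, 5 passed as lower in the same contrast, with a median of -0.90, and all 6 oligodendrocyte markers, 6 of 8 dopamine neuron markers and 2 of 3 septum markers passed as higher. The part of cell makeup in these differences was not tested.

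**Figure D5:**
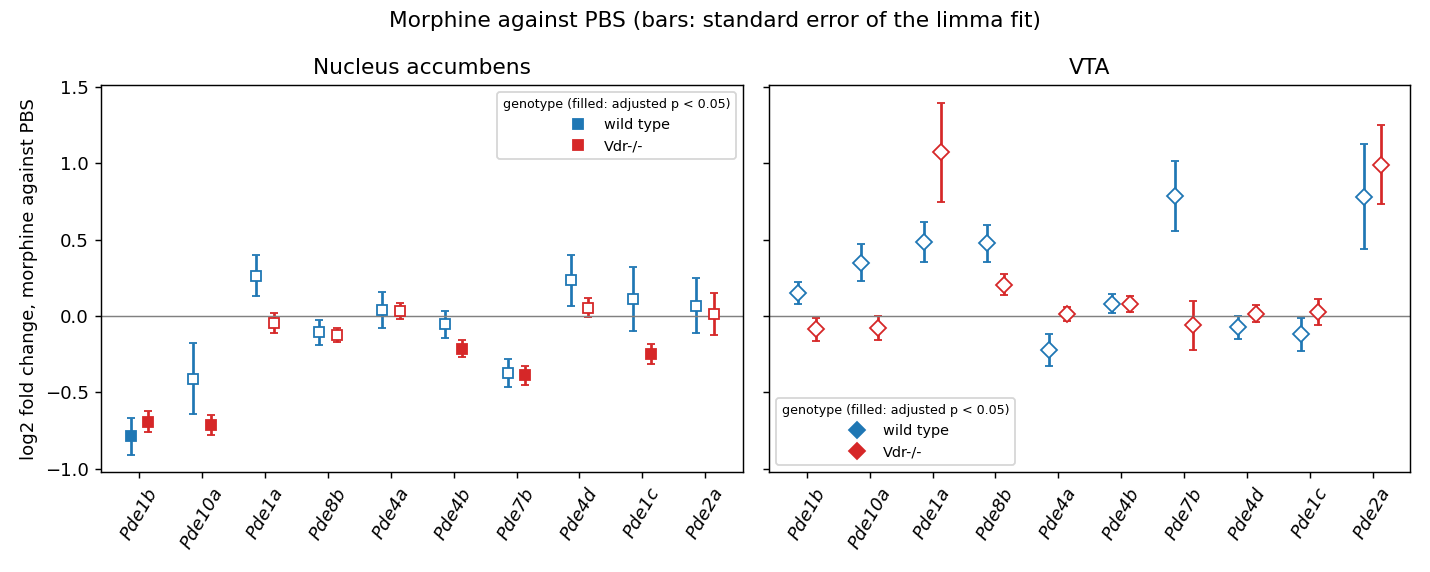
Log2 fold change of morphine against PBS for each of the 10 genes in the nucleus accumbens and the VTA, by genotype; bars are the standard error of the limma fit and filled symbols passed an adjusted p of 0.05. Filled symbols occur in the nucleus accumbens alone, 5 in Vdr-/- mice and 1 in wild type, and all lie below 0.

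Vdr-/- mice were compared with wild type within each region and injection, to ask whether loss of the receptor alters these enzymes. No gene of the 10 passed by limma in any of the 4 comparisons, where 0.0690% (nucleus accumbens, PBS), 0.192% (nucleus accumbens, morphine), 0.390% (VTA, PBS) and 0.0624% (VTA, morphine) of all genes did. At an unadjusted p under 0.05 there were 1, 3, 1 and 2 of the 10, beside 1424 of 15933, 1209 of 15638, 2338 of 16425 and 1406 of 16029 genes. edgeR called 0 in each, where it called 12, 29, 69 and 10 of all genes. DESeq2 called 1 in the nucleus accumbens with morphine and 1 in the VTA with PBS, where it called 52 and 282 of all genes. It called 0 in the nucleus accumbens with PBS and in the VTA with morphine (65 and 94 of all genes). These comparisons use the same libraries as those of morphine. The median log2 differences of the 10 were -0.04, -0.14, 0.09 and -0.04. Under PBS in the nucleus accumbens, Pde1a was at 234, 213 and 198 CPM in Vdr-/- mice and 150.1, 175 and 174 in wild type, without overlap (log2 fold change 0.39, SE 0.0951, adjusted p = 0.378). Slc17a7 in these accumbens libraries was at 969, 522 and 621 CPM in Vdr-/- mice and 311, 404 and 747 in wild type, overlapping. Under morphine there, Pde10a was at 761, 698 and 690.2 CPM and 1057, 849 and 818, also without overlap (log2 fold change -0.33, SE 0.0853, adjusted p = 0.299), and it was the gene that DESeq2 called (log2 difference -0.33, adjusted p = 0.0135). Pde7b (-0.24, adjusted p = 0.275) and Pde4b (-0.22, adjusted p = 0.282) were separate between the genotypes too. In the VTA under PBS, Pde1b was at 167, 159 and 177 CPM in Vdr-/- mice and 135, 146 and 133 in wild type, without overlap (log2 fold change 0.26, SE 0.0574, adjusted p = 0.148 by limma, and adjusted p = 0.0171 by DESeq2). In these libraries the summed dopamine neuron markers were 506 to 2183 CPM in Vdr-/- mice and 2310.5 to 2863 in wild type, without overlap. Summed hypothalamic markers overlapped, at 25.8 to 330 and 21.8 to 117. Under morphine in the VTA the lowest adjusted p of the 10 was that of Pde2a, with a log2 difference of 0.64 (adjusted p = 0.539). The part of cell makeup in the genotype differences was not tested.

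The genotype difference of the morphine effect in the VTA passed for none of the 10 genes by limma, edgeR or DESeq2. By limma 0.0553% of 16288 genes were called, and at an unadjusted p under 0.05 there were 2 of the 10 and 1983 of all genes. Of all 16288 genes, edgeR called 8 and DESeq2 called 193. The differences were largest for Pde7b (-0.85, adjusted p = 0.341) and Pde1a (0.59, adjusted p = 0.613). The region difference of the genotype effect likewise passed for none of the 10 (2 at an unadjusted p under 0.05), and 0% of 15065 genes passed by limma (842 at an unadjusted p under 0.05, and 0 by edgeR and by DESeq2). The lowest adjusted p was that of Pde1b, with a difference of -0.32 (adjusted p = 0.798).

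Genes that make, bind or relay cyclic nucleotides were counted from lists, to be read beside the 19.1% of all genes that passed for morphine in the nucleus accumbens of Vdr-/- mice and the 74.4% that passed between regions. Of 13 other phosphodiesterase genes, 9 were measurable in the nucleus accumbens and none passed for morphine by limma in either genotype. Between regions 4 of 8 passed, among which Pde9a, a cGMP-specific enzyme, was higher in the nucleus accumbens (log2 difference 0.49), and Pde8a (-0.87) and Pde11a (-0.96) were lower there. Pde8a, the close relative of Pde8b, was at 39.1, 32.2 and 38.9 CPM in the VTA of Vdr-/- mice given morphine and 57.5, 55.6 and 54.5 in those given PBS, and fell by 0.62 on the log2 scale (SE 0.0989, adjusted p = 0.0164, without PBS mouse 8). In the same table all 6 oligodendrocyte markers passed as lower, their sum being 7791 to 8607 CPM with morphine and 11451 to 11864 with PBS. Pde3a, at 13.4, 14.0 and 13.3 CPM with morphine and 8.18, 10.6 and 10.4 with PBS, rose by 0.55 there (SE 0.119, adjusted p = 0.0340). The morphine effect on Pde11a (0.70) and Pde8a (0.44) was higher in the nucleus accumbens than in the VTA, the opposite direction to the 5 members called in that contrast.

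Among the 9 adenylyl cyclases tested, which make cAMP, 3 rose and 2 fell after morphine in the nucleus accumbens of Vdr-/- mice, with a list median of 0.14. Adcy5, the main striatal cyclase, fell in Vdr-/- mice (log2 fold change -0.56, SE 0.0652) and in wild type (-0.67, adjusted p = 0.0368 by limma). Adcy6 rose in Vdr-/- mice (0.44) and Adcy8 in wild type (0.66, adjusted p = 0.0444 by limma). Of 19 genes of protein kinase A, its anchors and its substrates, 4 rose and 5 fell in Vdr-/- mice (median -0.05). The largest fall of those named was that of Ppp1r1b, which encodes the kinase substrate DARPP-32 and is also 1 of the medium spiny neuron markers (-0.86 in Vdr-/- mice and -0.83 in wild type). Of the 3 calmodulin genes, whose product activates PDE1, 2 fell in Vdr-/- mice (Calm3 by 0.22 and Calm2 by 0.20 on the log2 scale). Of 6 other cAMP effectors tested, 2 rose and 2 fell, Rapgef4, a cAMP-activated exchange factor, with -0.40. Of 10 cGMP genes tested, 2 rose and 3 fell. Those with the lowest adjusted p were Cngb1 (2.17), Gucy1a2 (-0.80) and Gucy1b1, a subunit of soluble guanylyl cyclase (-0.19). Medians of all genes in this comparison and of these lists lay between -0.20 and 0.18.

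Between regions, where 34.5% of all genes passed as higher in the nucleus accumbens, 5 of 9 adenylyl cyclases were higher in the nucleus accumbens and 4 lower, with Adcy5 at a log2 difference of 2.27. Of the 19 protein kinase A genes 10 were higher and 7 lower, of 7 other cAMP effectors 2 and 5, of 10 cGMP genes 3 and 4, and of 3 calmodulins 2 and 0. In the VTA after morphine, where 3.65% of all genes passed in wild type and 10% in Vdr-/- mice, 2 cyclases rose in Vdr-/- mice (Adcy6 by 0.34 and Adcy3 by 0.20 on the log2 scale) and none passed in wild type, while Rapgef4 fell in both genotypes (-0.42 and -0.65) and Akap5, a kinase anchor, rose in both (0.70 and 0.54). Of the genotype comparisons, only that in the nucleus accumbens with morphine had calls in these lists, Rapgef4 (-0.35, adjusted p = 0.0440) and Akap9 (-0.32, adjusted p = 0.0414), both lower in Vdr-/- mice.

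As a description, the genes whose log2 CPM followed these phosphodiesterases most closely over the 24 libraries were listed by Pearson's r. The libraries fall into the 2 regions, which carry most of these coefficients. Pde1b was closest to Adcy5 (0.996 over 24 libraries), with 0.992 within the 12 accumbens libraries and 0.284 within the 12 VTA libraries. Pde10a was closest to Slmap (0.993, with 0.881 and 0.498 within the regions). Pde1a was closest to Icam5, an adhesion protein of forebrain neurons (0.984), a likeness held by the VTA libraries (0.989) and not by those of the nucleus accumbens (-0.022). Pde8b was closest to Tmem158 and had Rgs9, a striatal regulator of G proteins, as the next (0.989, with 0.652 and 0.948). Other closest genes were Lrrtm3 for Pde4b (0.983), Slc4a8 for Pde4d (0.989), Osbpl8 for Pde1c (0.984), Plppr5 for Pde2a (0.984) and Bap1 for Pde4a, the lowest at 0.872. Among the 10 genes themselves, within the 12 accumbens libraries, Pde1b and Pde7b were most alike (r = 0.90) and Pde1a and Pde8b least (r = -0.79). These coefficients share libraries, groups and depth and carry no test.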

How the data were processed

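Per the submitters' processing notes, which also name CASAVA 1.8, and the study's methods, adapters were removed with Trimmomatic 0.36, and paired 101-base reads were mapped to GRCm38 and counted per gene with STAR 2.4.2a. The deposited signal values are such reads scaled by the authors with 1 factor per library, in 8 tables, each normalized alone; the tool that set the factors is not given in the sources used here. Whole reads were recovered from them (100% of values whole at a tolerance of 0.01) for CPM, the region comparisons and the count tests tried as alternatives.

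Morphine and genotype were tested within each table by limma 3.58.1 (R 4.3.3) with trend on log2(value + 1), a scale that understates changes of low genes, where a gene's mean was 10 or more. Region contrasts used log2 CPM (TMM, prior count 1, mean CPM of 1 or more) with the mouse as a block. Libraries of both regions with the same mouse number in the labels were taken as 1 mouse, and their deviations correlated at -0.061 to 0.21 (4 of 12 over 0.1). Benjamini-Hochberg adjustment ran over all genes tested, and a gene passed at 0.05. Some of the limma fits were tried on simulated reads with the same dispersion for every gene. Those reads held no shift in cell makeup and no outlying library, so the trial did not cover such features. Alternatives were edgeR 4.0.16, DESeq2 1.42.0, another pseudocount, other filters, no TMM, no block and leaving out each library.

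Named are the 10 genes, at most 3 genes per list and comparison by lowest adjusted p, and the genes most correlated with them. 1 result is not reported here. Genes, lists and markers were chosen with earlier results of these data known. Exon lengths are from GENCODE M21 (30204 identifiers matched) and promoters from RefSeq (GRCm38.p6).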

Additional observations from a re-analysis of the deposited data

Results flagged for a closer look

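A test of the difference itself, in which the effect of morphine was compared between the nucleus accumbens and the VTA in the same 12 mice, separated the regions for 5 of the 10 phosphodiesterases, all lower in the accumbens, where 13.3% of 15065 genes passed and 5.79% passed as lower. On the log2 scale (morphine minus PBS, accumbens minus VTA) the differences were -0.86 for Pde7b, -0.81 for Pde1b, -0.68 for Pde10a, -0.50 for Pde8b and -0.27 for Pde4b. Within the nucleus accumbens their log2 fold changes ran from -0.79 to -0.05 in wild type and from -0.71 to -0.12 in Vdr-/- mice, and within the VTA from 0.08 to 0.78 and from -0.09 to 0.20. Medium spiny neuron markers passed in the same direction for 5 of 8, and their part in these differences was not tested.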

How the results depend on the processing

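Of 21 called log2 fold changes, 0 turned direction in a tested alternative and 3 lost the call in some fit that left out a library (Pde1b in the nucleus accumbens of wild type, Pde1c and Pde4b in that of Vdr-/- mice). Of 109 uncalled ones, 34 changed sign and 14 were called in some alternative. DESeq2 in place of limma called 1 of the 10 genes (0 by limma) for genotype in the nucleus accumbens with morphine, 1 (0) for genotype in the VTA with PBS, 2 (1) for morphine in the nucleus accumbens of wild type and 3 (0) for morphine in the VTA of wild type. edgeR called 1 (0) for morphine in the VTA of Vdr-/- mice, where it called 1764 of all genes (1639 by limma). With all mice in the VTA morphine comparisons, 2 passed in wild type (1984 of all genes, 591 without PBS mouse 3) and 1 in Vdr-/- mice (1211, 1639 without PBS mouse 8). Over all genes DESeq2 called 52, 282, 514 and 1423 in the 4 comparisons named above, against 30, 64, 128 and 591 by limma. Leaving out each library in turn gave 0 to 3 calls for morphine in the nucleus accumbens of wild type, 3 to 5 in that of Vdr-/- mice, 0 to 3 in the VTA of wild type (2 without morphine mouse 1.0, 3 without mouse 1.1) and 0 to 1 in that of Vdr-/- mice (1 without mouse 2.0). Over all genes these fits called 0 to 627, 1566 to 3133, 0 to 2817 and 0 to 2272. The cause of these changes was not tested. Levels relative to the summed medium spiny neuron markers were an alternative chosen after seeing the data and carry no test. On that scale 3 genes called lower in the nucleus accumbens of Vdr-/- mice were higher with morphine. Their log2 ratios were 0.40 for Pde1c, 0.43 for Pde4b and 0.26 for Pde7b. The marker sum was itself lower with morphine there, so a gene with unchanged CPM also has a higher ratio.

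Without the replicate block by mouse, 10 genes passed between regions, 6 for the region difference of the morphine effect (5 with it) and 0 for that of the genotype effect. Over all 15065 genes, 11236, 2090 and 0 passed in these fits. A replicate block by the last digit of the mouse number left the genotype calls with morphine at 0 in both regions. Over all genes that fit called 19 of 15638 in the nucleus accumbens and 4 of 16029 in the VTA. Samples sharing that digit did not deviate together (correlations -0.16 to 0.055 in the nucleus accumbens and -0.27 to -0.21 in the VTA). No paired analysis was possible for morphine against PBS because those groups share no mouse numbers. At a mean CPM of at least 5, Pde2a was not tested and 9 genes passed between regions, where 9141 of all 11827 genes did. Pde2a in the VTA rested on 8 to 30 reads a library.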
